A study of Homo sapiens with 6 samples.

Results

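The genes that decide whether a cell lives or dies by apoptosis were followed in OVCAR8 cells, a line grown from a human ovarian carcinoma, with and without relaxin-2 (RLN2), a peptide hormone of the insulin superfamily. The set holds 36 genes of 58037 in the tables: members of the BCL2 family, caspases with their adaptors, inhibitor of apoptosis (IAP) genes, proteins released by mitochondria and the DNA fragmentation factor. They were taken by symbol from a list of named genes, all 36 were found, and the rule uses no measured value. All cells were plated in medium with serum and then kept without serum for 16 hours. In the RLN2 group cells were next given recombinant human RLN2 at 50 ng/mL, left for 8 hours, and 3 libraries were made (replicates 1, 2 and 3). In the untreated group no hormone was added, and 3 libraries were made (replicates 2, 3 and 4). The labels give no treatment time for this group, so whether its total time without serum matched the RLN2 group is not known. Every library is of the same cell line, and the labels do not tell whether replicates are cultures of their own, so the p-values rest on a spread between libraries that may be technical.

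Apoptosis through mitochondria turns on the balance within the BCL2 family. Guardian proteins such as BCL-xL and MCL1 hold the pore-forming effectors in check, and BH3-only proteins release them. Once the outer membrane opens, cytochrome c joins APAF1 to activate caspase-9, while death receptors reach caspase-8 through FADD, with CFLAR as a decoy. IAP proteins block active caspases, and DIABLO and HTRA2 block the IAPs. Ovarian carcinoma cells are known for leaning on BCL-xL and MCL1 for survival.

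Total RNA was read to a depth of 11939148 to 22426768 gene reads per library, and 313671 reads in all, or 0.276%, fell on the 36 genes. Keratins and the Müllerian factor PAX8 were present, KRT8 at 846 to 1061 CPM (counts scaled to the size of each library) after RLN2 and 454 to 869 CPM untreated. The 10 epithelial and ovarian markers summed to 2542 to 3041 CPM after RLN2 and 1695 to 2740.5 CPM untreated, lowest in untreated replicate 2, and their part in the members' values was not tested. Most of the sum came from KRT8, KRT18 and KRT7, while EPCAM and CD24 were highest in untreated replicate 2, at 36.2 and 196 CPM, against 27.7 to 31.2 and 163 to 177 CPM in the other 5 libraries. CDH1 stayed at or under 1.44 CPM and the ovarian cancer antigen MUC16 at or under 0.111 CPM. The 5 leukocyte markers summed to at most 0.261 CPM after RLN2 and 0.231 CPM untreated, and the 6 fibroblast markers to at most 2.34 CPM after RLN2 and 2.77 CPM untreated, with DCN at 0 reads. The 5 endothelial markers summed to 2.73 to 3.75 CPM after RLN2 and 1.76 to 3.00 CPM untreated, and the 4 mesothelial markers to 4.09 to 4.68 CPM after RLN2 and 2.84 to 3.75 CPM untreated, with ITLN1 at 0 reads. Untreated replicate 2 stood apart: it differed from every other library by a chi-square of 31.4 or more per degree of freedom over genes, against 2.61 for the closest pair (RLN2 replicate 1 and untreated replicate 4). RLN2 replicate 2, the shallowest library, differed from every other by 42.8 or more, and 27.0% of its reads mapped to several places, against 5.31% to 6.19% elsewhere. In bulk RNA, fewer cells carrying a transcript and less of it per cell cannot be told apart.

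The relaxin receptor is known to raise cAMP, and CREB, the factor that cAMP activates, binds the cAMP response element (CRE), TGACGTCA, or its core, TGACG. Promoter windows of 250 bases before to 50 after the start, from RefSeq on GRCh38.p14, were found for 29 of the 36 genes, and not for MCL1, BCL2L2, BIK, BNIP3L, CASP1, CASP10 and DFFB. The full CRE was in 0 of the 29, against 1.85% of all 35116 windows. Its core, searched on both strands, was in 10, or 34.5%, against 24.6% of all windows. The 10 were BCL2, BCL2L1, BAD, BMF, HRK, PMAIP1, CASP9, CYCS, BIRC6 and AIFM1. Median GC content was 65.0% over the 29 windows and 58.7% over all windows, and its part in the share with the core was not tested. The full CRE holds the core on both strands. The 250 bases before the start are given for the guardians BCL2 (chr18:63319770-63320019) and BCL2L1 (chr20:31723964-31724213) and for CYCS (chr7:25125261-25125510), the most abundant gene of the set. All 3 genes lie on the minus strand, and the windows are written 5′ to 3′ along the gene, with the core match in capitals (CGTCA is the core on the other strand). The match begins 225, 201 and 80 bases before the RefSeq start in BCL2, BCL2L1 and CYCS. In GENCODE 29, used here for exon lengths, BCL2 runs from 63123346 to 63320128, so its whole printed window lies inside that gene. BCL2L1 and CYCS reach 31723989 and 25125361 there, so their windows lie partly inside.
BCL2: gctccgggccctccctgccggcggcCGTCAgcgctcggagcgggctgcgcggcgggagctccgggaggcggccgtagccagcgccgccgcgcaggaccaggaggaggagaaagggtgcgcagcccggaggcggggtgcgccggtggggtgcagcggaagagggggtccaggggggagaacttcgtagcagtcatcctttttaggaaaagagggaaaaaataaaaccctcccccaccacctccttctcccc
BCL2L1: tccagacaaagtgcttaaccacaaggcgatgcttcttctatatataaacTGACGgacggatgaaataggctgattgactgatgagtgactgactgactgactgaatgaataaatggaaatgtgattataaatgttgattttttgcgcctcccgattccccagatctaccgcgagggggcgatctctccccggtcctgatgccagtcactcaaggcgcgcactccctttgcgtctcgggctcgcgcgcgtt
CYCS: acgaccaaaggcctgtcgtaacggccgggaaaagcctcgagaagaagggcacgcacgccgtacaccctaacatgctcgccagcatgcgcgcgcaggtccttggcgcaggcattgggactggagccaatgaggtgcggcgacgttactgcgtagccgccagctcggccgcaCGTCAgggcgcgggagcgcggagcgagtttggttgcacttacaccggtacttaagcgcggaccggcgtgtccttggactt
A match is a run of letters and not a shown binding site. In these 3 genes the log2 fold changes after RLN2 were -0.08, 0.30 and -0.16, each with a 95% interval that holds 0. A link between the matches and these values was not tested.

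Set against each other per exon length, as TPM (counts scaled to exon length and to the library), the 36 genes spanned levels from 0.820 TPM for BMF to 316 TPM for CYCS (mean of 6 libraries). TPM leaves out the scaling between libraries (TMM) used for CPM and the fits, so its group means can differ in direction from the log2 fold changes. CYCS, which encodes cytochrome c, had 283 ± 47.2 TPM after RLN2 and 349 ± 73.9 TPM untreated (SD, n = 3 each). It has 40 numbered pseudogenes in the annotation, and reads that map to several places were not counted, so its level is uncertain. MCL1 came next with 277 ± 40.6 TPM after RLN2 and 329 ± 41.7 TPM untreated. BNIP3L, a mitophagy receptor, BIRC6, a giant IAP that is also a ubiquitin ligase, and BCL2L1, which encodes BCL-xL, followed at 143, 129.9 and 103 TPM. BNIP3L was above BIRC6 and above BCL2L1 in 6 of 6 libraries, and BIRC6 above BCL2L1 in 5 of 6. CYCS was above MCL1 in 4 of 6 libraries, with overlapping ranges, so the order of that pair is not fixed by the data. At the low end stood HRK, CASP1, BCL2A1 and BMF, none above 1.79 TPM. BCL2A1, a guardian of blood cells, was the one gene below edgeR's filter on low counts, with 5, 6 and 5 reads after RLN2 and 13, 9 and 5 reads in untreated cells, so it was not tested.

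**Figure D1:**
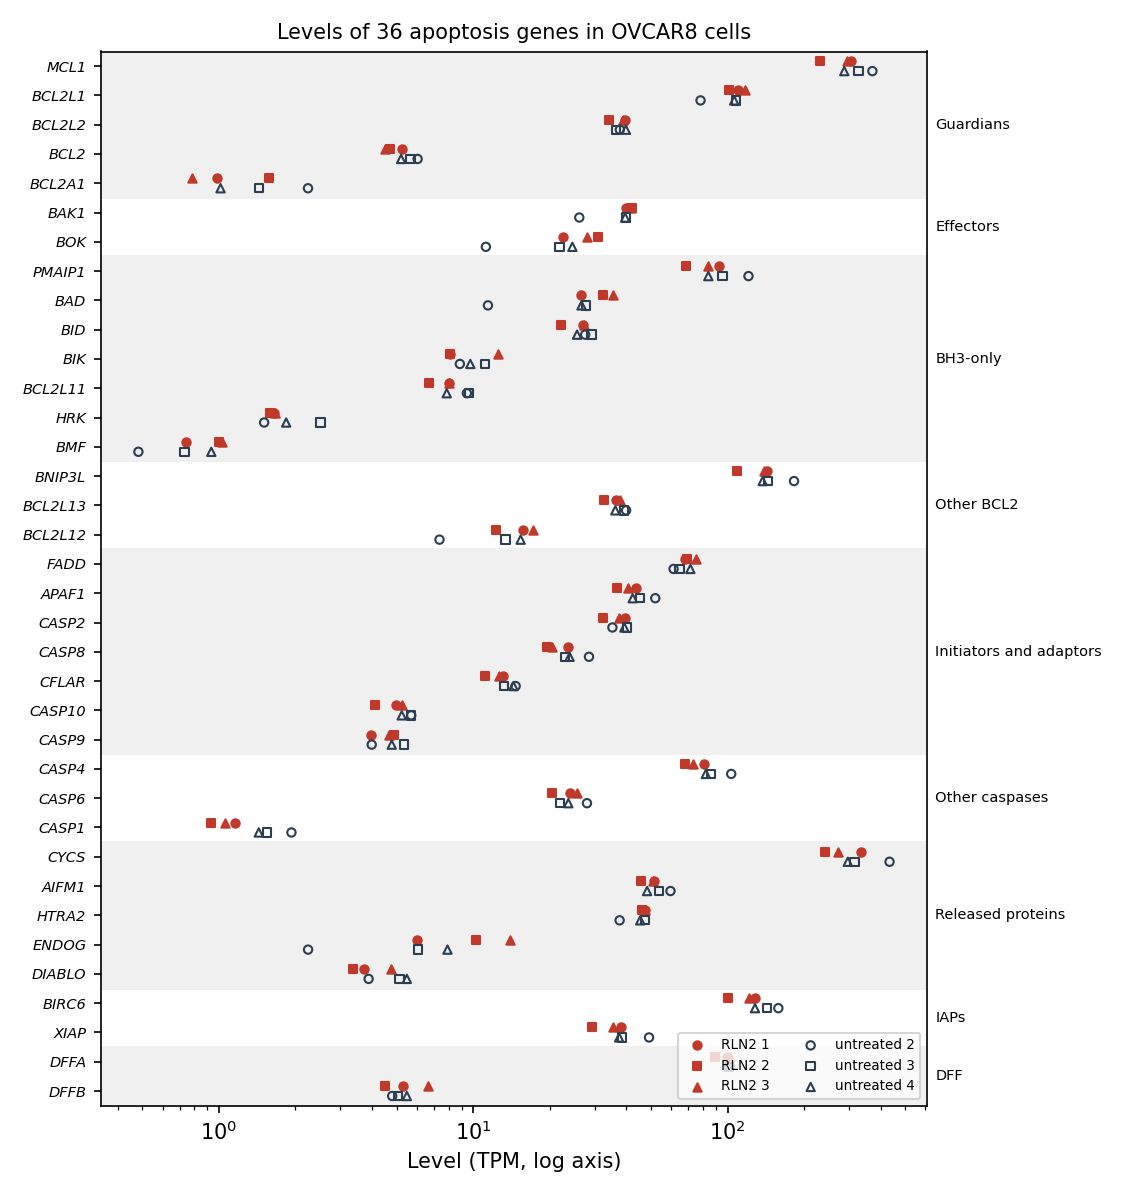
Level of each of the 36 genes in each library, in TPM on a log axis, grouped by role and ordered by level within a role. Filled red marks are RLN2 libraries and open dark marks untreated libraries, with 1 shape per replicate in a group. CYCS and MCL1 stand highest and BMF lowest, and the marks of both groups overlap for most genes.

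No member passed the test after RLN2: 0 of 35 tested at a Benjamini-Hochberg adjusted p under 0.05, beside 0.0% of all 16740 genes tested (edgeR quasi-likelihood test, smallest adjusted p = 0.408 for both). At an unadjusted p under 0.05 there was 1 member, CASP1, which was lower, beside 10.8% of all genes (6.3% higher and 4.52% lower). DESeq2 and limma-voom also called 0 members. At an unadjusted p under 0.05 they gave 3 and 0 members, beside 1677 and 2058 of all 16740 genes tested. By sign, 19 members were higher and 16 lower, with a median log2 fold change of 0.03, beside -0.01 over all genes tested. The groups did not overlap in 6 members, which is 17.1% of 35, beside 21.4% of all genes. BCL2L1, BAK1 and HTRA2 were the 3 higher ones, beside 10.8% of all genes, and CASP1, CASP4 and BIRC6 the 3 lower ones, beside 10.5%. In 23 of 35 members, or 65.7%, the 95% interval of the log2 fold change stayed within a 1.5-fold change either way, beside 52.9% of all genes. The median standard error was 0.12 on the log2 scale over the members and 0.16 over all genes.

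**Figure D2:**
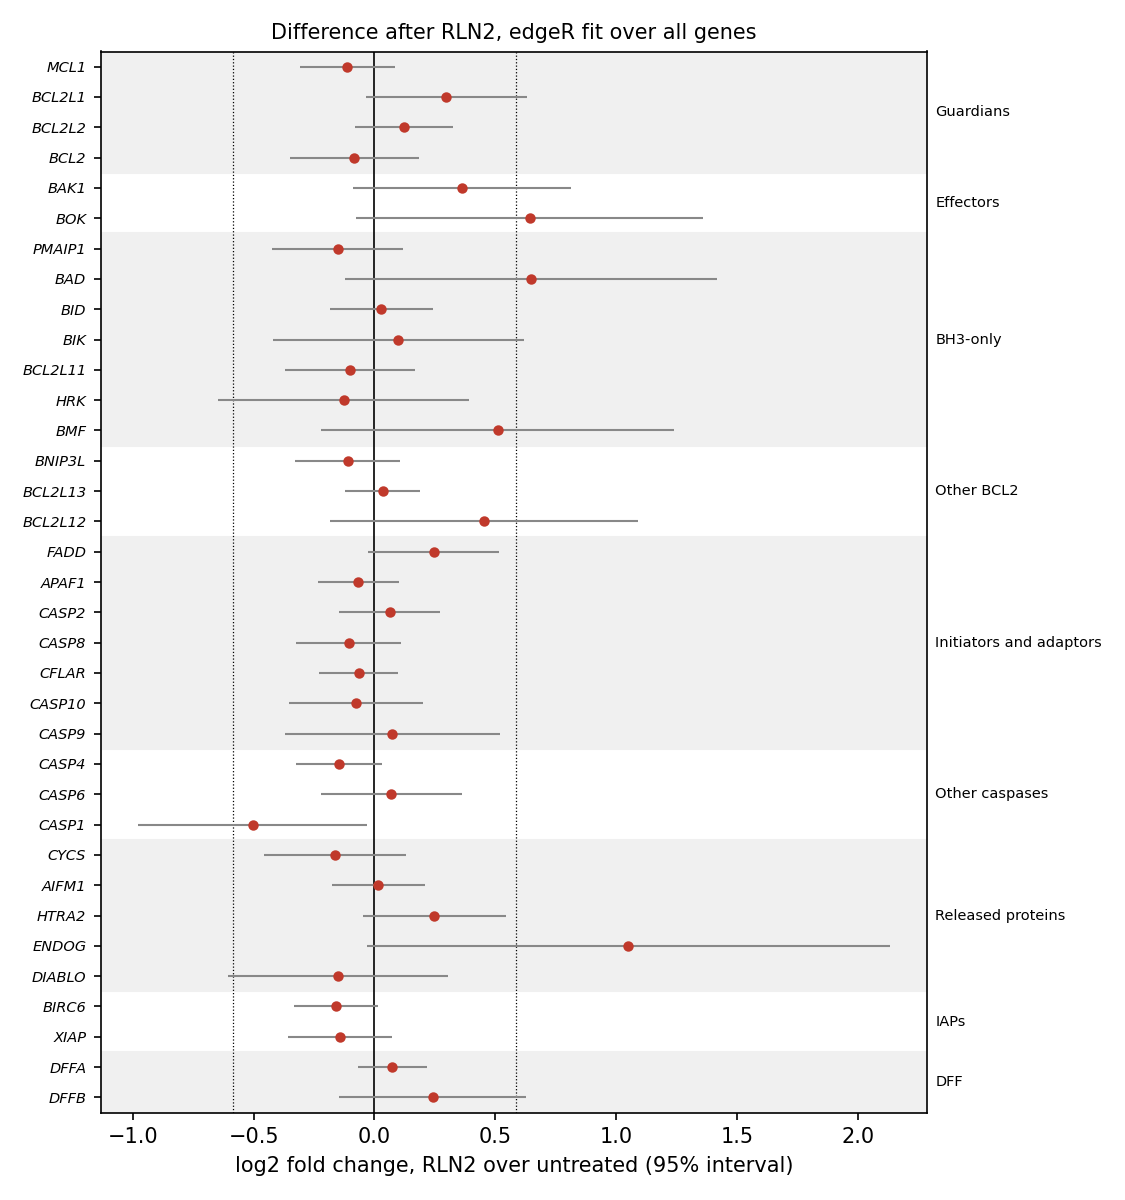
Log2 fold change of each tested member, RLN2 over untreated, with its 95% interval from the edgeR fit, grouped by role. The solid line marks no difference and the dotted lines a 1.5-fold difference either way. The interval of CASP1 alone leaves out 0, and those of ENDOG, BAD, BOK and BMF are the widest on the higher side.

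Among the guardians MCL1 made up most of the message. Of the TPM summed over BCL2, BCL2L1, BCL2L2, MCL1 and BCL2A1, its share was 64.2% ± 2.17 after RLN2 and 69.6% ± 4.87 untreated (SD, n = 3), and that of BCL2L1 was 25.6% ± 1.70 after RLN2 and 20.8% ± 4.43 untreated. BCL2 itself held only 1.13% ± 0.139 after RLN2 and 1.19% ± 0.0219 untreated. The share of MCL1 was 74.9%, 68.4% and 65.4% in untreated replicates 2, 3 and 4, and that of BCL2L1 15.8%, 22.6% and 24.1%. Untreated replicate 2 thus stood apart in both shares. Transcript GC content is 47.9% for MCL1 and 55.7% for BCL2L1, and its part in the shares was not tested. MCL1 (chromosome 1, 150574551 to 150579738, GRCh38), a short-lived guardian that needs constant synthesis, had 348, 307 and 344 CPM in RLN2 replicates 1, 2 and 3, against 389, 362 and 328 CPM in untreated replicates 2, 3 and 4. The groups overlapped, with untreated replicate 2 highest and RLN2 replicate 2 lowest, and the log2 fold change was -0.11 ± 0.09 (SE; 95% interval -0.31 to 0.08), -0.05 without untreated replicate 2. BCL2L1 (chromosome 20, 31664452 to 31723989) had 94.7, 102 and 104 CPM in RLN2 replicates 1, 2 and 3, against 62.3, 90.7 and 91.8 CPM in untreated replicates 2, 3 and 4. All RLN2 values lay above all untreated ones, but RLN2 replicate 1 and untreated replicates 3 and 4 were close together and untreated replicate 2 was far below. Its log2 fold change of 0.30 ± 0.14 (SE; 95% interval -0.03 to 0.63) was 0.14 without untreated replicate 2. BCL2 had 16.1, 16.9 and 14.2 CPM after RLN2, against 17.1, 16.9 and 16.0 CPM in untreated cells, groups that overlapped, with a log2 fold change of -0.08 ± 0.12. BCL2L2, which encodes BCL-w, had 43.3, 43.6 and 43.5 CPM after RLN2, against 37.9, 38.5 and 43.5 CPM in untreated cells, with the 3 RLN2 values nearly equal to each other and to untreated replicate 4, and the other untreated values below. Its log2 fold change was 0.12 ± 0.09, and it shares 19.4% of its exon length with the readthrough gene BCL2L2-PABPN1 on the same strand, so reads that fit both were not counted.

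Both effectors of the set, BAK1 and BOK, had positive fold changes that did not pass the test. BAK1, one of the pore formers of the outer mitochondrial membrane, had 23.0, 28.4 and 24.6 CPM in RLN2 replicates 1, 2 and 3, against 13.9, 22.3 and 22.8 CPM in untreated replicates 2, 3 and 4. The RLN2 libraries all lay above the untreated ones, but RLN2 replicate 1 did so narrowly over untreated replicates 3 and 4, and untreated replicate 2 was the low one. The log2 fold change was 0.36 ± 0.20 (SE; 95% interval -0.09 to 0.82), 0.16 without untreated replicate 2. BOK, a further effector relative, had 16.0, 25.7 and 20.2 CPM in RLN2 replicates 1, 2 and 3, against 7.29, 15.0 and 17.4 CPM in untreated replicates 2, 3 and 4, and RLN2 replicate 1 lay inside the untreated range. Its log2 fold change of 0.64 ± 0.31 was 0.34 without untreated replicate 2, 0.46 without RLN2 replicate 2 and 0.88 without untreated replicate 4.

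BH3-only genes, 7 in number, gave 4 higher and 3 lower, with a median of 0.03 and 0 whose groups did not overlap, beside 21.4% of all genes. PMAIP1, which encodes NOXA, the partner of MCL1, was the most abundant of them. Its share of their summed TPM was 51.5% ± 4.15 after RLN2 and 58.3% ± 7.64 untreated (SD, n = 3). Untreated replicate 2 was at 67.1%. Untreated replicates 3 and 4 were at 54.1% and 53.6%, inside the RLN2 range of 48.9% to 56.3%. The log2 fold change of PMAIP1 was -0.15 ± 0.12 (SE), and -0.03 without untreated replicate 2. BCL2L11, which encodes BIM, a FOXO target that rises when growth factors are withdrawn, had 13.97, 13.6 and 14.3 CPM after RLN2, against 15.1, 16.2 and 13.7 CPM in untreated cells. Its groups overlapped, and at -0.10 ± 0.12 (SE; 95% interval -0.37 to 0.17) its interval stayed within 1.5-fold either way. BAD, the BH3-only protein that AKT and PKA silence by phosphorylation, had 11.9, 16.8 and 16.1 CPM in RLN2 replicates 1, 2 and 3, against 4.68, 12.02 and 11.9 CPM in untreated replicates 2, 3 and 4. Untreated replicate 2 was far below every other library, RLN2 replicate 1 fell just under untreated replicates 3 and 4, and the log2 fold change was 0.65 ± 0.33, 0.31 without untreated replicate 2. BMF, a sensor of detachment from the matrix, was rare, with 1.06, 1.66 and 1.5 CPM after RLN2, against 0.630, 1.009 and 1.33 CPM in untreated cells and a log2 fold change of 0.51 ± 0.32, 0.26 without that library. BID, which caspase-8 cuts, BIK and HRK had log2 fold changes of 0.03 ± 0.09, 0.10 ± 0.22 and -0.13 ± 0.23, and the groups overlapped in each. HRK was at -0.32 without untreated replicate 2.

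None of the other relatives of BCL2 passed the test. BNIP3L had a log2 fold change of -0.11 ± 0.09, -0.01 without untreated replicate 2, and BCL2L13, a mitophagy receptor of the outer membrane, 0.03 ± 0.07, with an interval of -0.12 to 0.19. BCL2L12 had 9.07, 8.28 and 10.2 CPM after RLN2, against 3.92, 7.504 and 8.88 CPM in untreated cells, again with untreated replicate 2 lowest, and a log2 fold change of 0.45 ± 0.28, 0.19 without that library. On the strand opposite BCL2L12 lies IRF3, over 33.1% of its exon length.

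Among initiator caspases and their adaptors, 3 were higher and 4 lower in sign, with a median log2 fold change of -0.06. The 95% interval stayed within 1.5-fold either way in all 7 (CASP2, CASP8, CASP9, CASP10, CFLAR, FADD and APAF1), beside 52.9% of all genes. CASP8, the initiator at death receptors, had 44.4, 43.1 and 39.6 CPM after RLN2, against 49.6, 42.1 and 45.2 CPM in untreated cells, with RLN2 replicate 3 lowest and untreated replicate 2 highest. Its log2 fold change was -0.11 ± 0.09, -0.04 without untreated replicate 2. CFLAR, whose product FLIP competes with caspase-8, had 76.6, 76.1 and 76.2 CPM after RLN2, against 79.4, 75.4 and 84.6 CPM in untreated cells. The RLN2 libraries were nearly equal and lay inside the untreated range, at a log2 fold change of -0.06 ± 0.07. APAF1, the scaffold of the apoptosome, had 89.9, 88.6 and 86.0 CPM after RLN2, against 98.6, 90.7 and 87.4 CPM in untreated cells, groups that overlapped, with a log2 fold change of -0.07 ± 0.07. CASP9, the caspase that APAF1 activates, had 5.45, 7.84 and 6.55 CPM after RLN2, against 5.04, 7.11 and 6.57 CPM in untreated cells, with a log2 fold change of 0.07 ± 0.19. FADD, the death receptor adaptor, had 32.7, 38.8 and 37.0 CPM after RLN2, against 27.1, 30.1 and 34.3 CPM in untreated cells, with RLN2 replicate 1 under untreated replicate 4, and a log2 fold change of 0.24 ± 0.12. CASP2 and CASP10 had log2 fold changes of 0.06 ± 0.09 and -0.08 ± 0.12. CASP8, CASP10 and CFLAR lie in 1 stretch of chromosome 2, between 201116104 and 201287711.

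CASP1, the inflammasome caspase that matures interleukin-1β (chromosome 11, 105025443 to 105035250), was the one member with an interval that left out 0. It had 20, 12 and 23 reads in RLN2 replicates 1, 2 and 3, or 1.11, 1.05 and 1.05 CPM, against 38, 33 and 24 reads in untreated replicates 2, 3 and 4, or 1.71, 1.45 and 1.38 CPM. All RLN2 values lay below all untreated ones, and the 3 RLN2 values were closer together than the untreated ones. The log2 fold change was -0.50 ± 0.20 (SE; 95% interval -0.98 to -0.03), with an unadjusted p of 0.0392 and an adjusted p of 0.408 in edgeR's quasi-likelihood test, so it did not pass. It was -0.41 when untreated replicate 2 was left out, -0.39 when both libraries numbered 2 were, and -0.38 with offsets for transcript GC content and length. Over all 15 alternatives it ran from -0.58 to -0.38 and its adjusted p from 0.238 to 0.874. CASP1 has 2 numbered pseudogenes in the annotation. CASP4, a caspase that senses bacterial lipopolysaccharide and also lies on chromosome 11, was much more abundant, with 153, 151 and 142 CPM in RLN2 replicates 1, 2 and 3, against 180.0, 158 and 156 CPM in untreated replicates 2, 3 and 4. Its groups did not overlap either, and its log2 fold change was -0.15 ± 0.08 (SE; 95% interval -0.33 to 0.03), -0.08 without untreated replicate 2 and -0.01 with the offsets. CASP6, an executioner caspase, had a log2 fold change of 0.07 ± 0.13.

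Of the proteins that mitochondria release, HTRA2 and ENDOG were higher in sign and CYCS and DIABLO lower, and AIFM1 was near 0 at 0.02 ± 0.08 (interval -0.18 to 0.21). CYCS had 388, 329 and 324 CPM in RLN2 replicates 1, 2 and 3, against 464, 356 and 345 CPM in untreated replicates 2, 3 and 4, with untreated replicate 2 highest and the other libraries interleaved. Its log2 fold change of -0.16 ± 0.13 (SE; 95% interval -0.46 to 0.13) was -0.02 without untreated replicate 2. HTRA2, a serine protease that binds IAPs, had 37.1, 42.1 and 37.9 CPM after RLN2, against 27.1, 35.9 and 35.5 CPM in untreated cells. Its groups did not overlap, with RLN2 replicate 1 close above untreated replicates 3 and 4, and its log2 fold change was 0.25 ± 0.13 (SE; 95% interval -0.05 to 0.54), 0.12 without untreated replicate 2. ENDOG, a mitochondrial nuclease (chromosome 9, 128818474 to 128822677), had the largest log2 fold change of the members, 1.05 ± 0.47 (SE; 95% interval -0.03 to 2.13), from 33, 42 and 96 reads after RLN2, or 1.84, 3.66 and 4.36 CPM, and 14, 41 and 42 reads in untreated cells, or 0.630, 1.80 and 2.42 CPM. Values within each group ranged widely, RLN2 replicate 1 lay inside the untreated range, and without untreated replicate 2 the log2 fold change was 0.66. SPOUT1 covers 39.2% of its exon length on the other strand, where 54.7% of the reads within ENDOG were counted, and ENDOG dropped out of the test when counts were unstranded. DIABLO, which encodes the IAP antagonist Smac, shares 29.6% of its exon length with other genes on its strand, so its counted level of 4.39 TPM is uncertain, and its log2 fold change was -0.15 ± 0.20, -0.30 without untreated replicate 2.

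Both IAP genes of the set were lower in sign. BIRC6 (chromosome 2, 32357028 to 32618899) had 596, 549 and 578 CPM in RLN2 replicates 1, 2 and 3, against 679, 646 and 597 CPM in untreated replicates 2, 3 and 4. The groups did not overlap, although RLN2 replicate 1 and untreated replicate 4 were nearly equal, and the log2 fold change was -0.16 ± 0.08 (SE; 95% interval -0.33 to 0.02). XIAP, the strongest direct caspase inhibitor of the family, had 89.8, 80.8 and 85.2 CPM in RLN2 replicates 1, 2 and 3, against 106, 87.9 and 88.2 CPM in untreated replicates 2, 3 and 4, with RLN2 replicate 1 inside the untreated range. Its log2 fold change was -0.14 ± 0.09 (SE; 95% interval -0.36 to 0.07), -0.04 without untreated replicate 2. The share of XIAP in the summed TPM of the pair was 22.7% ± 0.224 after RLN2 and 22.5% ± 1.23 untreated. DFFA, the inhibitor, and DFFB, the nuclease that cuts chromosomal DNA in dying cells, had log2 fold changes of 0.07 ± 0.06 and 0.24 ± 0.17. DFFA was far more abundant than its partner, with 97.2 ± 7.04 TPM after RLN2 and 102 ± 0.561 TPM untreated, against 5.48 ± 1.08 TPM after RLN2 and 5.12 ± 0.344 TPM untreated for DFFB. In CPM, which unlike TPM carries the TMM scaling, DFFA had 178 ± 5.08 after RLN2 and 169 ± 6.21 untreated.

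The members' fold changes varied with the base composition of their transcripts, although CASP1, among the larger ones in size, has GC-poor transcripts. Mean transcript GC content ran from 39.2% in BIRC6 to 67.7% in ENDOG, with a median of 49.6% over the tested members and 48.7% over all genes. Of the 17 members at 50% or more, 15 were higher and 2 lower (BCL2L11 and HRK), with a median log2 fold change of 0.24. Of the 18 under 50%, 4 were higher and 14 lower, with a median of -0.11. Over all genes, 6215 of 7492 were higher in the GC-rich class and 1764 of 9181 in the other, with medians of 0.25 and -0.12. The log2 fold change and GC content had a Pearson r of 0.88 (Spearman rho 0.85) across the 35 members, beside 0.71 (0.73) across the 16673 genes with a known GC content. Genes share the same libraries and are not independent replicates, and the classes were formed after the values were seen. The most GC-rich members were ENDOG, BAD (65.0%), BOK (64.4%), BMF (60.1%) and BCL2L2 (59.6%), and the least GC-rich tested ones BIRC6, APAF1 (40.4%), CASP4 (42.9%) and CASP1 (43.1%).

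**Figure D3:**
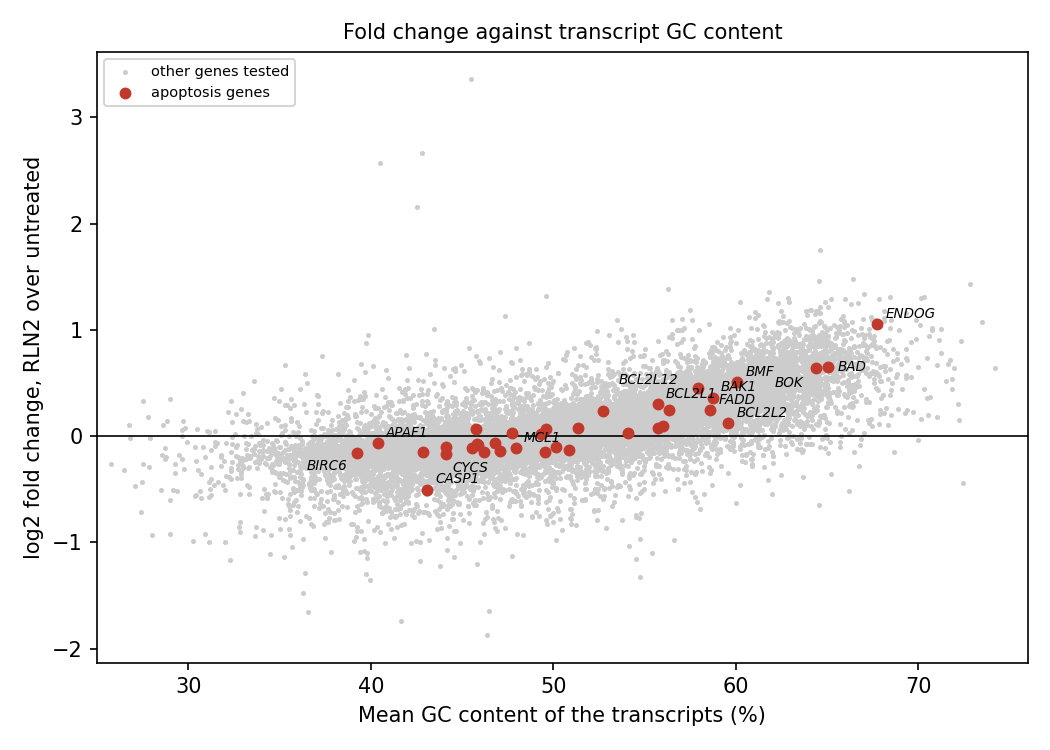
Log2 fold change, RLN2 over untreated, against the mean GC content of a gene's transcripts, for the 35 tested members (red, some named) and all other genes tested (grey). The members follow the slope of the other genes, from BIRC6 at 39.2% and -0.16 to ENDOG at 67.7% and 1.05, and CASP1 lies below it.

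The split by GC content was also present between libraries of the same group. In untreated replicate 2 the members deviated from their own 6-library mean by a median of -0.31 for the GC-rich members and 0.15 for the others, on the scale of log2 of CPM + 0.5. RLN2 replicates 2 and 3 deviated the other way, at 0.19 and 0.16 for the GC-rich members and -0.08 and -0.05 for the others. RLN2 replicate 1 and untreated replicates 3 and 4 lay between -0.01 and 0.04 in the GC-rich class. Thus 1 of the 3 RLN2 libraries was placed with 2 of the 3 untreated ones.

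**Figure D4:**
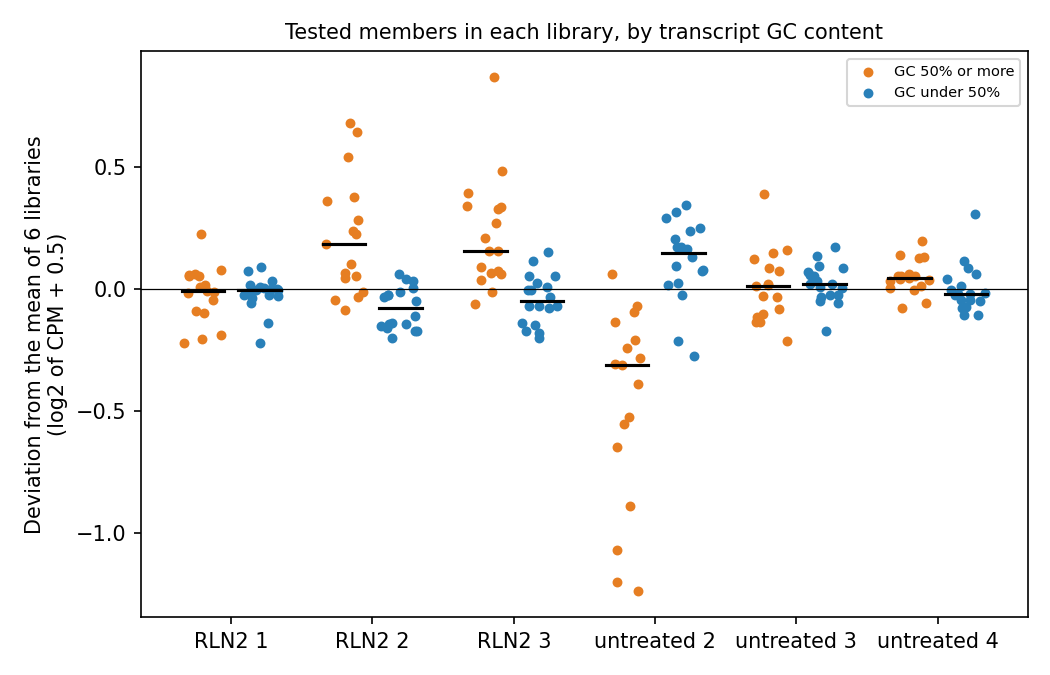
Deviation of each tested member from its mean over the 6 libraries, as log2 of CPM + 0.5, in each library. Orange points are members with transcripts of 50% GC or more, blue points the others, and bars are class medians. The classes part most in untreated replicate 2 (-0.31 and 0.15) and part the other way in RLN2 replicates 2 and 3.

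When each library's smooth trend on transcript GC content and length was taken out by offsets in the same edgeR fit, most of the larger values came close to 0. BAD was then 0.04, BOK 0.05, BAK1 -0.01 and HTRA2 -0.0017, against 0.65, 0.64, 0.36 and 0.25 without offsets. BCL2L1 was 0.09, BMF 0.10, BCL2L12 0.17 and ENDOG 0.35. BIRC6 was 0.001 and XIAP -0.09. Values of FADD and BCL2L2 turned to -0.14 and -0.32. In all, 12 of the 35 members changed sign with the offsets, and the class medians were -0.0017 for the GC-rich members and -0.0029 for the others. Without untreated replicate 2 and with no offsets, these medians were 0.14 and -0.04. With the offsets CASP1 was farthest from 0 of the 35, at -0.38, and it did not pass there either. The offsets take out any difference between libraries that follows GC content or length, whatever its origin. A difference due to RLN2 that follows GC content would be taken out too, and its part was not tested.

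**Figure D5:**
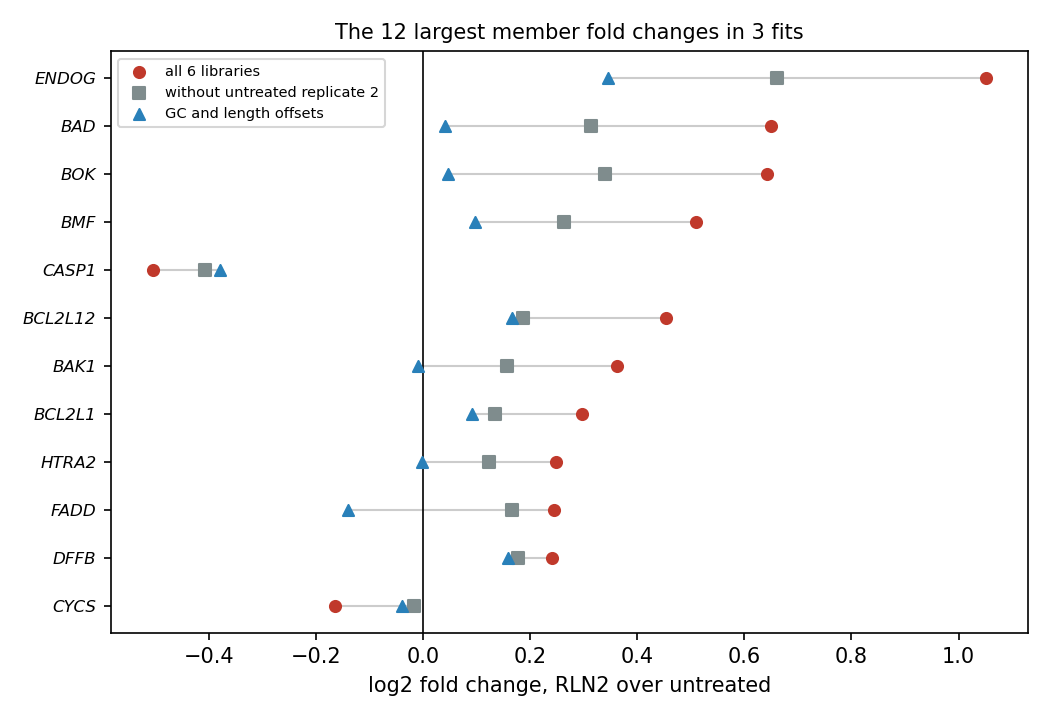
Log2 fold change, RLN2 over untreated, of the 12 members with the largest values, in the fit of all 6 libraries (red circles), without untreated replicate 2 (grey squares) and with GC content and length offsets (blue triangles). With the offsets the values lie between -0.38 for CASP1 and 0.35 for ENDOG.

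Further genes of the pathway, 51 on 3 lists, held no change past the test either: 0 of the 43 tested passed, 20 higher and 23 lower, with a median log2 fold change of -0.04. Groups did not overlap in 7 of them, or 16.3%, beside the 21.4% of all genes given above. Among 15 family relatives, 10 were tested, 3 higher and 7 lower. BAX, an effector and partner of BAK1, had 21.98, 27.9 and 27.5 CPM after RLN2, against 11.5, 18.2 and 24.7 CPM in untreated cells, with untreated replicate 4 above RLN2 replicate 1, and a log2 fold change of 0.51 ± 0.25, 0.27 without untreated replicate 2. BNIP3, the hypoxia-induced relative of BNIP3L, had a log2 fold change of -0.16 ± 0.09. Of the other IAP genes BIRC2, BIRC3 and NAIP had log2 fold changes of -0.19 ± 0.11, -0.13 ± 0.14 and -0.20 ± 0.32, and BIRC5 was on the other side of 0 at 0.11 ± 0.08. CASP5, the IAP gene BIRC7, the ligand gene FASLG and the inflammasome adaptor PYCARD had 0 reads in all libraries. Of 18 death receptors, ligands and adaptors, 16 were tested, 12 higher and 4 lower, with the TNF receptor TNFRSF1A at 0.29 ± 0.13 and the nuclear adaptor DAXX at 0.24 ± 0.11. Of 18 further regulators, 17 were tested, 5 higher and 12 lower, with the DNA repair enzyme PARP1, a caspase substrate, at 0.15 ± 0.07 and CAAP1 at -0.21 ± 0.10. With the offsets BAX, BNIP3, TNFRSF1A, DAXX, PARP1 and CAAP1 were at 0.09, -0.32, 0.08, -0.0009, 0.12 and -0.09. BIRC2, BIRC3, NAIP and BIRC5 were then at -0.04, 0.05, -0.08 and 0.04. Replication-dependent histone messages lack a poly(A) tail, and 13 of 14 listed genes of this class were found. These 13 summed to 1613 to 1990.1 CPM after RLN2 and 976 to 1835 CPM untreated, lowest in untreated replicate 2. The 13 mitochondrially encoded messages summed to 9542 to 10801 CPM after RLN2 and 8037 to 9817 CPM untreated. The part of both lists in the members' values was not tested.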

How the data were processed

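RNA from 6 OVCAR8 samples was extracted with TRIzol and made into stranded total RNA libraries, per the labels' protocols. The authors deposited raw counts of reads per gene for each library, unstranded and by strand, and a merged count table. Reads were counted with STAR on hg38, per the submitters' processing notes, with no version or annotation release given in the sources used here. The reverse-strand column was used, as gene reads there were 17.8 to 19.8 times those on the forward strand, and all 24635 gene IDs shared with the merged table equalled it. Unmapped, multimapping, no-feature and ambiguous reads (6.73% to 17.4%, 5.31% to 27.0%, 17.5% to 32.0% and 2.36% to 4.18% of reads) were left out of library sizes.

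After edgeR's default filter and TMM scaling, groups were compared with the two-sided quasi-likelihood test of edgeR 4.0.16, run in R 4.3.3. Benjamini-Hochberg adjustment was over all 16740 genes, and calls needed an adjusted p under 0.05. DESeq2 1.42.0 and limma-voom (limma 3.58.1) were alternatives, beside other scalings, filters, strands, offsets, the replicate block and left-out libraries. Intervals are the log2 fold change with its standard error times the t quantile at 7.98 degrees of freedom, and the standard error is the size of the log2 fold change over the square root of F. TPM used the exon union length of GENCODE 29. GC content and length are means over a gene's GENCODE 29 transcripts, and the offsets are natural splines with 5 degrees of freedom on each. The script was tested on simulated data. The members and lists were chosen with earlier results of these data known. All members are named, the core of the pathway and the 10 with the smallest p in full. Of each of the 3 lists of further pathway genes, the 2 genes with the smallest p are named. The lists of histone and mitochondrially encoded messages are given as sums only. Other genes named were chosen after their values were seen. Figures were drawn with matplotlib 3.10.9.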

Additional observations from a re-analysis of the deposited data

How the results depend on the processing

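No member passed an adjusted p under 0.05 under any of the 15 alternatives, and the smallest adjusted p of a member was 0.0850, for ENDOG with no filter on low counts. Over all genes, 120 passed with no filter (115 higher and 5 lower), 3 without both libraries numbered 2 and 1 with the replicate block, and 0 to 3 when 1 library was left out, with 3 without untreated replicate 2. Members with groups that do not overlap numbered 7 to 17 when 1 library was left out. They were 15, 7 and 7 without RLN2 replicates 1, 2 and 3, beside 46.9%, 25.7% and 27.4% of all genes. Without untreated replicates 2, 3 and 4 they were 8, 9 and 17, beside 26.6%, 29.6% and 43.6%. They were 12, beside 34.2%, without both libraries numbered 2, an alternative chosen after seeing the data. Groups of fewer libraries overlap less often by construction. With unstranded counts they were 4 of 34 tested, beside 21.2%. The number of higher members ran from 16 to 22 and the members' median log2 fold change from -0.01 to 0.05, against 0.03 as reported. Of 35 members 14 kept their sign under every alternative and 21 turned in at least 1, 12 of them with the GC content and length offsets. The numbers 2 and 3 are shared by both groups, but the labels do not say that they pair libraries, and their deviations correlated at -0.40 and 0.17. The replicate block turned the sign of 2 members and gave log2 fold changes of 1.11 for BAD, 1.11 for BOK and 1.79 for ENDOG. With 1 library left out, values ran from 0.31 to 0.86 for BAD, 0.34 to 0.88 for BOK and 0.66 to 1.43 for ENDOG. Each was lowest without untreated replicate 2. Few reads limit what can be seen for CASP1, BMF and BCL2A1. Intervals cover the spread between these libraries only.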
